A study of Mus musculus with 13 samples.

Results

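CD8 T cells from B16-F10 tumors of mice whose Treg cells had been ablated were compared with CD8 T cells from tumors in which Treg cells were left in place. The comparison used 5 of the 13 RNA sequencing libraries, chosen by the cell type and treatment in their labels. They were CD8+ Tconv cells from mice given diphtheria toxin (CD8 DTx, n = 3, replicates 1, 2 and 3) and CD8+ Tconv cells from mice given saline (CD8 PBS, n = 2, replicates 2 and 3). All 13 libraries came from Foxp3-EGFP-DTR mice carrying B16-F10 melanoma, a mouse tumor line implanted under the skin. In this genotype the Foxp3 locus drives both EGFP and a receptor for diphtheria toxin, so the toxin kills the cells that express Foxp3 throughout the animal and not in the tumor alone. The PBS mice carry the same allele but received no toxin, and no toxin-treated mice without the receptor are among the groups used here. According to the paper, the mice were young adults of both sexes and replicates were biological and collected on different days, but its methods and its legend differ on the day of harvest. Which libraries shared an animal or a day is not stated, so p-values measure the spread between these libraries. The preparation text in the labels describes a CD4 enrichment before sorting for every library, and the gate that collected CD8 cells is not given in the sources used here.

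A CD8 T cell that meets its antigen divides repeatedly, loads granules with perforin and granzymes, secretes interferon-gamma and chemokines, and exchanges the receptors that guide naive cells through lymph nodes for receptors that guide cells into tissue. Transcription factors such as T-bet, Blimp-1, Id2 and Zeb2 accompany effector differentiation, and TCF-1, LEF-1, Id3 and Bach2 accompany the naive, memory-precursor and stem-like states. Treg cells restrain this process by consuming interleukin-2, by CTLA-4 acting on antigen-presenting cells and by secreting inhibitory cytokines.

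The CD8 DTx libraries held between 17475086 and 28548352 recovered reads and the CD8 PBS libraries 17959205 and 16920875. Values are in normalized reads, the deposited read counts after scaling by library, and are listed in the order CD8 DTx replicates 1, 2 and 3 and then CD8 PBS replicates 2 and 3. Single libraries are named by group and number, as in CD8 DTx 1 or PBS 3. A value of 3 reads, between 2.77 and 4.04 normalized reads in these libraries, was taken as the floor of detection. Lineage transcripts matched the labels, with Cd8a at 48330, 44403 and 28002 against 23475 and 27907, Cd8b1 at 64199, 81586 and 37680 against 40376 and 48228 and the CD3 epsilon chain gene Cd3e at 27652, 36295 and 20880 against 21023 and 20971. Foxp3 was at 3.7, 9.63 and 12.1 against 9.72 and 0, and Cd4 was at 413, 0 and 40.4 against 2.43 and 0, so CD8 DTx replicate 1 stood apart for Cd4. CD8 DTx replicate 3 was correlated with the other CD8 DTx libraries at r = 0.892 and 0.89 across genes, and with CD8 PBS replicate 2 at 0.892, whereas CD8 DTx replicates 1 and 2 were correlated with one another at 0.945. Y-linked transcripts were present in replicate 3 of every group and absent from replicates 1 and 2, so animals of both sexes were present in both CD8 groups. Groups that did not overlap were frequent with so few libraries. All CD8 DTx libraries lay above both CD8 PBS libraries for 2892 of the 12667 genes tested (22.8%) and below them for 2635 (20.8%).

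With limma and Benjamini-Hochberg adjustment over all 12667 genes, 692 genes (5.46% of those tested) were called, of which 490 rose (3.87%) and 202 fell (1.59%) in CD8 DTx, at an adjusted p under 0.05 and a change of more than 4-fold. These are the genes said to rise or fall. In all 490 and all 202 of them the groups did not overlap, so that separation is no further support for a called gene. At the adjusted p alone 937 were higher (7.4%) and 440 lower (3.47%). The median log2 fold change of all genes was -0.03. Errors given as ± after a log2 fold change are model standard errors, and a plain fold is the ratio of the group means. Of the genes called, 164 of the 490 and 32 of the 202 belonged to at least 1 of the gene lists described here. The size of the call depended on the small PBS group. Without CD8 PBS 3, which leaves a single PBS library, 130 genes were called higher and 23 lower, although 366 of the 490 and 184 of the 202 still changed by more than 4-fold. Without CD8 PBS 2 the counts were 515 higher and 87 lower, and without CD8 DTx 3 they were 535 and 459. With the CD8 libraries fitted alone, so that the spread came from 5 libraries, 118 genes were called higher and 83 lower, and 94 of the 136 genes named here that were called lost their call. Gzma, Klrg1, Tbx21, Prdm1, Pdcd1, Havcr2 and Ccr2 were among those that lost it. In the Results, later sentences on calls lost under other settings leave out this fit and the one with replicate numbers as a block. In these bulk samples a smaller number of cells of a kind and less RNA per cell cannot be told apart.

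**Figure D1:**
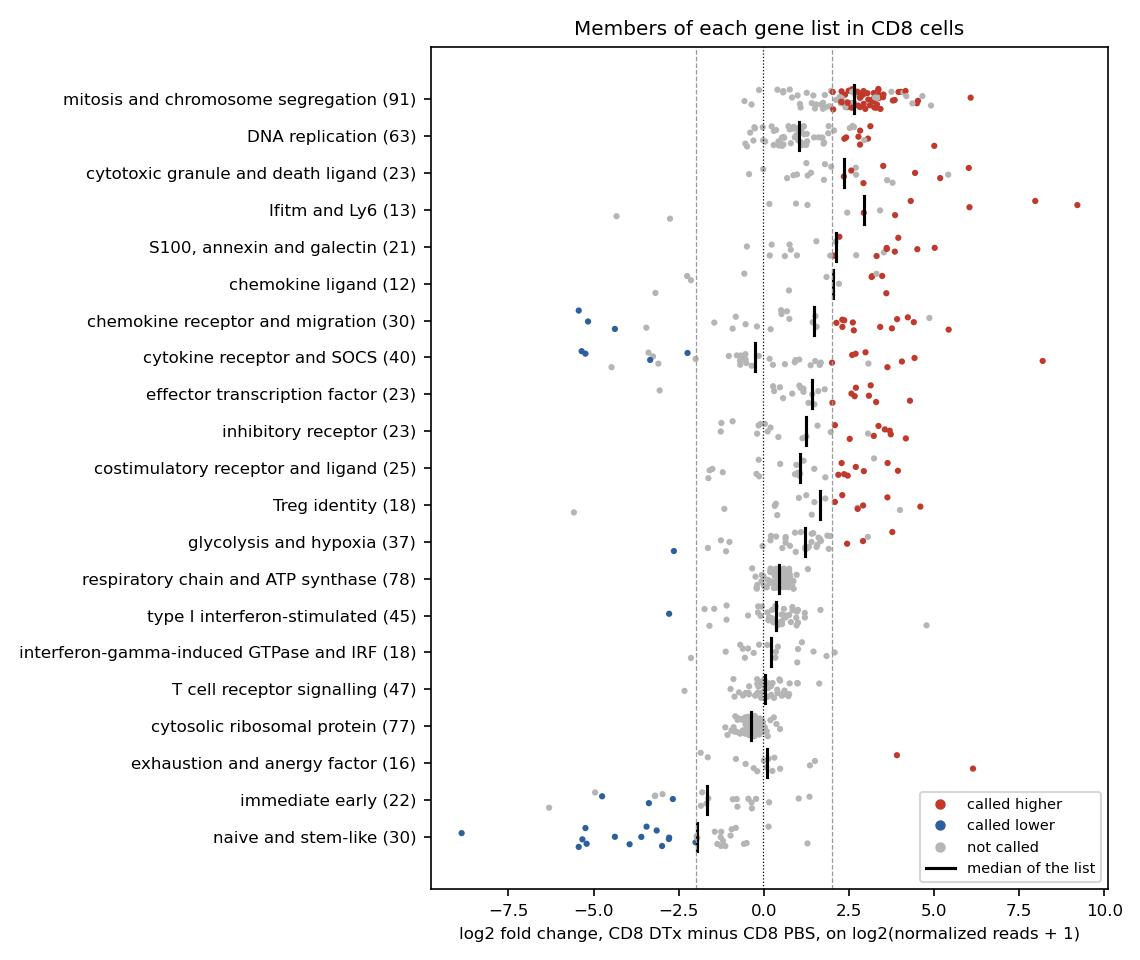
Log2 fold change of every tested member of 21 gene lists in CD8 DTx against CD8 PBS, with 1 point a gene, the number tested in parentheses, red and blue for genes called higher and lower and a black bar at the list's median. Dashed lines mark the 4-fold limits and the dotted line the median of all genes. The mitosis, cytotoxic, S100 and Ifitm lists lie to the right, the naive and immediate early lists to the left, and the T cell receptor signalling list near the dotted line. The type I interferon list (median 0.36) and the interferon-gamma list (0.22) lie slightly to the right of that line. The cytosolic ribosomal list lies slightly to its left (median -0.39).

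Genes of mitosis and chromosome segregation made up the most numerous class that rose. Of 91 tested members, 49 rose and 0 fell, with a median log2 fold change of 2.64, and 88 of the 91 had a positive value. Mki67, the proliferation antigen Ki-67, was at 1895, 5508 and 3525 normalized reads in CD8 DTx and 842 and 228 in CD8 PBS (6.81-fold, log2 fold change 2.92 ± 0.57, adjusted p = 0.00713). Top2a, the topoisomerase that untangles chromosomes before they separate, was at 3036, 7853 and 5192 against 1481 and 335 (log2 fold change 2.82, adjusted p = 0.0121). Ccnb2, a B-type cyclin, was at 2541, 4591 and 1743 against 509 and 137 (9.15-fold, log2 fold change 3.36, adjusted p = 0.00337), and its kinase partner gene Cdk1 was at 1541, 2047 and 985 against 248 and 34.7 (10.8-fold, log2 fold change 3.95, adjusted p = 0.00518). In each of these genes the lowest CD8 DTx library lay above the higher CD8 PBS library, and CD8 DTx 2 was the highest. Plk1, a kinase needed for spindle assembly, was at 903, 2545 and 1042 against 203 and 82.6 (log2 fold change 3.36, adjusted p = 0.00299), and the survivin gene Birc5 was at 1774, 2897 and 1337 against 337 and 111 (log2 fold change 3.29, adjusted p = 0.0115). Within both sets of replicates the direction was the same, with a median over the list of 2.14 for replicates 1 and 2 against PBS replicate 2 and of 3.22 for replicate 3 against PBS replicate 3. The count was sensitive to single libraries, at 26 without CD8 DTx 2 and at 3 without CD8 PBS 3, where 32 of the 49 still changed by more than 4-fold. In the fit of the CD8 libraries alone it was 1. Calls were lost for Mki67, Ccnb2, Cdk1, Plk1 and Birc5 without PBS 3 and for Top2a without DTx 2 or PBS 3 (adjusted p up to 0.216).

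The DNA replication list moved less. Of 63 tested members, 8 rose and 0 fell, and 19 were higher at the adjusted p alone, with a median of 1.03. Rrm2, the inducible subunit of the enzyme that makes deoxyribonucleotides, was at 5100, 10499 and 4248 normalized reads in CD8 DTx and 1059 and 459 in CD8 PBS (8.72-fold, log2 fold change 3.13, adjusted p = 0.00247). Cdc45, part of the replicative helicase, was at 1394, 1672 and 840 against 298 and 111 (log2 fold change 2.78, adjusted p = 0.00924), and Cdc6, which helps load that helicase, was at 1036, 1385 and 665 against 175 and 78.6 (log2 fold change 3.06, adjusted p = 0.0364). The core helicase subunits did not reach the threshold. Mcm4 was at 6184, 8454 and 6022 against 4526 and 4457 (log2 fold change 0.60, adjusted p = 0.105) and Mcm7 at 4394, 5752 and 3679 against 3186 and 2905 (log2 fold change 0.57, adjusted p = 0.214), and although the groups did not overlap the differences were under 2-fold. The count of 8 was 4 without CD8 DTx 1 or 2, and it was 0 without CD8 PBS 3 and in the fit of the CD8 libraries alone. Of 25 cyclins, cyclin-dependent kinases, inhibitors and E2F factors, 5 rose and 0 fell. They included the cell cycle inhibitors Cdkn1a at 819, 671 and 705 against 123 and 244 (log2 fold change 2.07, adjusted p = 0.0101) and Cdkn2b at 138, 131 and 57.9 against 7.29 and 6.66 (log2 fold change 3.68, adjusted p = 0.00987), so both drivers and brakes of division rose. That count was 3 without CD8 DTx 2, 1 without CD8 PBS 3 and 0 with the CD8 libraries alone. Linker histone Hist1h1b, made in S phase, was at 654, 2448 and 257 against 57.1 and 9.33 (log2 fold change 4.93, adjusted p = 0.0095), and 3 of 35 histone genes rose and 1 fell, with reads of near-identical histone copies uncertain. The call ended for Rrm2, Cdc45 and Hist1h1b without PBS 3, for Cdkn1a without DTx 1 or PBS 2, for Cdkn2b without PBS 2 or PBS 3 and for Cdc6 without DTx 1, DTx 2, PBS 2 or PBS 3 (adjusted p up to 0.322). The call also ended for Cdc6 with no filter on low genes and for Cdkn1a with DESeq2.

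**Figure D2:**
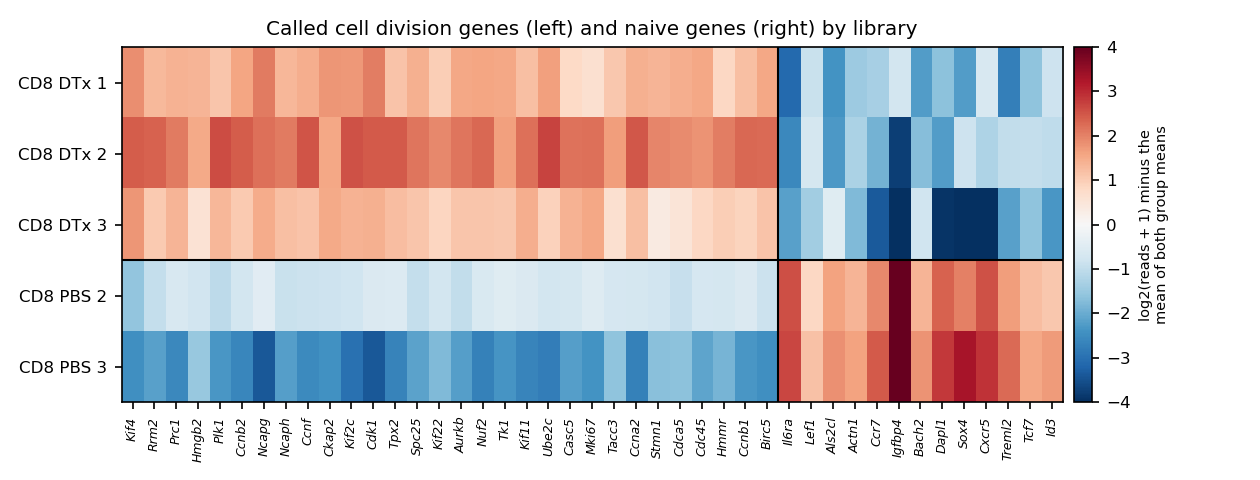
Heat map of the 30 cell division genes with the lowest adjusted p among those called (left) and 13 of the naive and stem-like genes called (right), with libraries in rows and color for log2(normalized reads + 1) minus the mean of both group means. Every cell division gene is red in all 3 CD8 DTx libraries and blue in both CD8 PBS libraries, and the naive genes show the opposite colors. Such a split goes with the choice of called genes, whose groups never overlapped, and only the depth of color differs between libraries.

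Mitotic genes share a promoter element, the cell cycle genes homology region (CHR), through which they are held down in resting cells, and many S phase genes carry E2F sites. Promoters were searched on both strands for the CHR as TTTGAA or TTCGAA and for E2F sites as TTTGGCGC, TTTCGCGC, TTTCCCGC or TTTGCCGC. The window ran from 250 bases before to 50 after the start in the RefSeq annotation of GRCm38.p6, for the 9390 tested genes with a promoter there. The CHR letters were present in 54 of 73 mitosis promoters (74.0%), in 7 of 50 DNA replication promoters (14%) and in 14.2% of all promoters. Among mitosis genes that rose they were in 33 of 41 (80.5%), and among those not called in 21 of 32 (65.6%). The E2F letters were present in 8 of 73 mitosis promoters (11%), in 16 of 50 replication promoters (32.0%) and in 4.08% of all. These matches describe the windows and do not show binding.

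The 150 bases before the start are shown for the 5 mitosis genes of lowest adjusted p whose window held the CHR letters there, because the element is the sequence these genes have in common, and for Cdc6, the single replication gene called with E2F letters in these bases. Capitals mark the CHR, and for Cdc6 the E2F letters, read on either strand. The regions were chr8:57511693-57511842 (plus strand) for Hmgb2, chr5:45669775-45669924 (plus strand) for Ncapg, chr17:24251410-24251559 (minus strand) for Ccnf, chr8:22185820-22185969 (minus strand) for Ckap2, chr4:117178773-117178922 (minus strand) for Kif2c and chr11:98908001-98908150 (plus strand) for Cdc6.
Hmgb2: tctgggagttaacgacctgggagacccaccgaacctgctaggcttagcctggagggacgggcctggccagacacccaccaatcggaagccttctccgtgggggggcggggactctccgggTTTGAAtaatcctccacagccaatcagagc
Ncapg: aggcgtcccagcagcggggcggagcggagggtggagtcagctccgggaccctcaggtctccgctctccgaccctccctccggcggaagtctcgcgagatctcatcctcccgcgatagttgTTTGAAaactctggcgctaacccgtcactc
Ccnf: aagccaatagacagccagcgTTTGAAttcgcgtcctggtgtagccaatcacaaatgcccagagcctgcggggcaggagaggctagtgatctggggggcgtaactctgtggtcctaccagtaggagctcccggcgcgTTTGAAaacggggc
Ckap2: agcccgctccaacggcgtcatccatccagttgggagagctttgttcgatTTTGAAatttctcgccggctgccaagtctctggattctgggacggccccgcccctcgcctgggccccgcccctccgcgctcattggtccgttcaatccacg
Kif2c: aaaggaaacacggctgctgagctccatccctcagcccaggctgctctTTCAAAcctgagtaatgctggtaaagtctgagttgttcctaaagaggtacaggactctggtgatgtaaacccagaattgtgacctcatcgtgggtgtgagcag
Cdc6: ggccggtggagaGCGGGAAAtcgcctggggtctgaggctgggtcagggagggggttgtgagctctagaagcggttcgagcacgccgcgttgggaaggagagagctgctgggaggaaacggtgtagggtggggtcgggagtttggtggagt

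The genes with these promoters rose as follows. Hmgb2, a chromatin protein abundant in dividing cells, was at 18040, 20048 and 10532 normalized reads in CD8 DTx and 4199 and 2455 in CD8 PBS (4.87-fold, log2 fold change 2.28 ± 0.37, adjusted p = 0.0026). The condensin subunit gene Ncapg was at 2029, 2212 and 1350 against 349 and 45.3 (9.46-fold, log2 fold change 3.84 ± 0.66, adjusted p = 0.00376). Ccnf, which holds the letters at both ends of its window, encodes cyclin F and was at 1063, 2230 and 856 against 215 and 66.6 (9.82-fold, log2 fold change 3.39 ± 0.59, adjusted p = 0.0042). All of the CD8 DTx libraries exceeded both CD8 PBS libraries for each of these genes. The microtubule-associated gene Ckap2 was at 480, 412 and 402 against 77.8 and 25.3 (8.38-fold, log2 fold change 3.24 ± 0.57, adjusted p = 0.00439). Kif2c, a kinesin that takes microtubules apart at the centromere and whose match lies on the opposite strand, was at 737, 1294 and 577 against 126 and 26.7 (11.4-fold, log2 fold change 3.79 ± 0.69, adjusted p = 0.00506). Removal of a library ended the call for Hmgb2, Ccnf, Ckap2 and Kif2c without PBS 3 (adjusted p up to 0.0946).

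The cytotoxic machinery rose in part. Of 23 tested granule and death ligand genes, 7 rose, 0 fell and 11 were higher at the adjusted p alone, with a median log2 fold change of 2.35. Gzmb, the gene of the protease granzyme B that triggers apoptosis in target cells, was at 104756, 80348 and 65338 normalized reads in CD8 DTx and 4780 and 1072 in CD8 PBS (28.5-fold, log2 fold change 5.18 ± 0.60, adjusted p = 0.000533). Gzma, the gene of granzyme A, was at 39350, 99846 and 30230 against 2985 and 192 (35.6-fold, log2 fold change 6.02 ± 0.88, adjusted p = 0.00171), and Gzmk, a granzyme of early effector and memory cells, was at 11457, 14836 and 8302 against 720 and 369 (21.2-fold, log2 fold change 4.44 ± 0.54, adjusted p = 0.000648). The lowest CD8 DTx library was 10.1-fold above the highest CD8 PBS library for Gzma, 13.7-fold for Gzmb and 11.5-fold for Gzmk, and CD8 PBS 3 was the lowest. The Fas ligand gene Fasl, a membrane-bound inducer of apoptosis, was at 14066, 10837 and 7772 against 1505 and 576 (10.5-fold, log2 fold change 3.5 ± 0.40, adjusted p = 0.000496). Serpinb9, an inhibitor that guards the killer cell against its own granzyme B, was at 15992, 15741 and 11102 against 3545 and 969 (log2 fold change 2.93, adjusted p = 0.00297), and Stx11, a syntaxin needed for granule release, was at 2116, 2094 and 2622 against 626 and 315 (log2 fold change 2.35, adjusted p = 0.00118). Prf1, the gene of the pore-forming protein perforin, was higher at the adjusted p but under the 4-fold limit, at 12785, 17976 and 14992 against 5663 and 3488 (log2 fold change 1.76 ± 0.33, adjusted p = 0.00562). Granzymes form a gene cluster of similar sequences, so shared reads could be split between them. The count of 7 was 4 without CD8 PBS 3 and 3 with the CD8 libraries alone. Leaving out a library ended the call for Serpinb9 and Stx11 without PBS 3 (adjusted p up to 0.0512).

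Of 18 killer lectin-like receptor genes, 2 rose (11.1%, against 3.87% of all genes) and 0 fell, with a median log2 fold change of 0.99. That median was 0.27 in replicates 1 and 2 and 2.29 in replicate 3. At an unadjusted p under 0.05 with limma the list held 4 genes (22.2%, against 26.3% of all genes), so the rise rests on the 2 called. Klrg1, which marks terminal effector cells, was at 3134, 7100 and 3142 normalized reads in CD8 DTx and 412 and 69.3 in CD8 PBS (18.5-fold, log2 fold change 4.60 ± 0.61, adjusted p = 0.00114), and the gene of the inhibitory receptor NKG2A, Klrc1, was at 34275, 18332 and 18320 against 3266 and 818 (11.6-fold, log2 fold change 3.79 ± 0.78, adjusted p = 0.00955). Klrc1 has close copies whose reads are uncertain, and 1 of the 2 was called without CD8 PBS 3 and 0 with the CD8 libraries alone. Natural killer cell transcripts, which these receptors and granzymes share, differed by library rather than by group. The natural killer receptor gene Ncr1 was at 17.6, 2147 and 599 against 956 and 25.3 and Klrb1c, the NK1.1 gene, was at 292, 2964 and 1265 against 2113 and 217. Of the 9 natural killer markers 0 were called by limma, edgeR or DESeq2, 2 passed an unadjusted p of 0.05, and their summed level was 1604, 10779 and 5290 normalized reads in CD8 DTx and 6139 and 2366 in CD8 PBS, so the ranges overlapped. CD8 DTx 1, with the lowest natural killer sum, had the highest Gzmb and Klrc1. CD8 DTx 2, with the highest sum, had the highest Gzma and Klrg1. The part of natural killer cells in these results was not tested. With a library left out, the call was lost for Klrc1 without PBS 3 (adjusted p up to 0.176).

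Effector transcription factors also rose in part. Of 23 tested, 8 rose and 0 fell, with a median of 1.42. Tbx21, which encodes T-bet, was at 6250, 9606 and 9897 normalized reads in CD8 DTx and 1979 and 1008 in CD8 PBS (5.75-fold, log2 fold change 2.57 ± 0.43, adjusted p = 0.00329). Id2, an inhibitor of E proteins, was at 60581, 47735 and 32008 against 7969 and 6052 (6.67-fold, log2 fold change 2.70 ± 0.36, adjusted p = 0.00114), and the Blimp-1 gene Prdm1 was at 2298, 2535 and 2953 against 719 and 119 (6.19-fold, log2 fold change 3.14 ± 0.52, adjusted p = 0.00329). Bhlhe40, a repressor induced by antigen and used by tissue T cells, was at 19199, 17752 and 22148 against 2617 and 1521 (9.52-fold, log2 fold change 3.30 ± 0.35, adjusted p = 0.000432). As in every gene called, none of these groups overlapped. Zeb2, a partner of T-bet in terminal effectors, was at 530, 1037 and 1229 against 262 and 6.66 (log2 fold change 4.29 ± 1.03, adjusted p = 0.0199), where CD8 PBS 3 was near the floor and replicate 2 was not. Eomes, the T-box factor related to T-bet, was at 1154, 3462 and 2475 against 1804 and 1678 with overlapping groups (log2 fold change 0.30 ± 1.36, adjusted p = 0.905). The count of 8 was 5 without CD8 DTx 2, 3 without CD8 PBS 3 and 4 with the CD8 libraries alone. Calls were lost for Tbx21 and Prdm1 without PBS 3 and for Zeb2 without DTx 2 or PBS 3 (adjusted p up to 0.125). Among other settings, the call was lost for Zeb2 with edgeR.

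**Figure D3:**
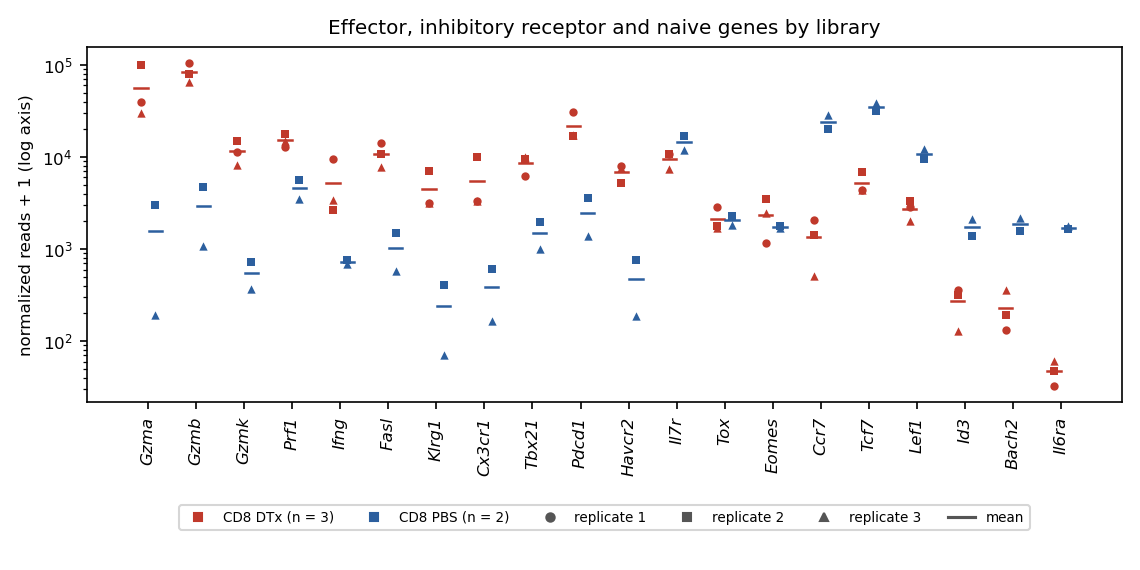
Normalized reads + 1 on a log axis for 20 effector, inhibitory receptor and naive genes, with a point a library, red for CD8 DTx (n = 3), blue for CD8 PBS (n = 2), marker shape for the replicate number and bars at the means. From Gzma to Havcr2 the red points lie above the blue ones, Il7r lies lower in red without passing the test, Tox and Eomes overlap, and from Ccr7 to Il6ra the red points lie below.

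Among the lists, the naive and stem-like one held the most genes that fell. Of 30 tested members 14 fell and 0 rose, with a median log2 fold change of -1.96 and a negative value in 28. Ccr7, the receptor for lymph node chemokines, was at 2080, 1431 and 516 normalized reads in CD8 DTx and 19947 and 28669 in CD8 PBS (18.1-fold lower, log2 fold change -4.37 ± 0.67, adjusted p = 0.00217). The TCF-1 gene Tcf7 was at 4346, 6869 and 4389 against 31708 and 38786 (6.78-fold lower, log2 fold change -2.79 ± 0.70, adjusted p = 0.0254), Lef1, its relative, was at 2887, 3321 and 2041 against 9648 and 12123 (log2 fold change -2.0, adjusted p = 0.00162), and Id3 was at 363, 319 and 129 against 1374 and 2099 (log2 fold change -2.78, adjusted p = 0.0305). Tcf7 stayed far above the floor in every CD8 DTx library. Bach2, a repressor of effector programs, was at 132, 193 and 358 against 1585 and 2175 (8.26-fold lower, log2 fold change -3.15, adjusted p = 0.00929). Il6ra, the interleukin-6 receptor alpha chain, was at 31.4, 46.2 and 60.6 against 1654 and 1780 (37.3-fold lower, log2 fold change -5.24 ± 0.75, adjusted p = 0.00155). Igfbp4, a secreted binder of insulin-like growth factors that naive T cells express, was at 272, 31.8 and 0 against 7867 and 12018 (98.3-fold lower, log2 fold change -8.87, adjusted p = 0.00789), with CD8 DTx 1 the highest of its group. The interleukin-7 receptor gene Il7r, a survival receptor of naive and memory cells, was not called, at 10722, 10702 and 7474 against 16930 and 11987 (log2 fold change -0.58 ± 0.31, adjusted p = 0.246). The count was 5 both without CD8 PBS 3 and with the CD8 libraries alone. The call ended for Bach2 and Igfbp4 without PBS 3, for Lef1 without DTx 3 or PBS 3, for Tcf7 without DTx 1, DTx 2, PBS 2 or PBS 3 and for Id3 without DTx 2, DTx 3, PBS 2 or PBS 3 (adjusted p up to 0.26). Other settings ended the call for Lef1 with TMM scaling, edgeR or DESeq2.

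Transcripts of blood and of B cells were higher in the same CD8 PBS libraries in which naive genes were high. The 8 tested erythroid genes summed to 897, 2035 and 855 normalized reads in CD8 DTx and to 3020 and 7635 in CD8 PBS, and Hba-a1, an alpha globin gene, was at 6.47, 342 and 55.2 against 686 and 2894. Of the 8, 0 were called by limma, edgeR or DESeq2, and 0 passed an unadjusted p of 0.05. The 11 tested B cell markers summed to 5924, 6661 and 3208 against 17369 and 18252, most of it Ighm, the immunoglobulin mu gene, at 5407, 4862 and 2704 against 16132 and 17174 (log2 fold change -2.01, adjusted p = 0.00222). The defining B cell gene Ms4a1 was at 0, 0 and 24.2 against 51 and 44 and Cd79a, a chain of the B cell receptor, at 19.4, 0 and 4.04 against 42.5 and 4. Pecam1, an endothelial marker that naive T cells also carry, was at 944, 1356 and 1403 against 3865 and 3762. The part of such cells in the fall of the naive list was not tested. Removal of a library ended the call for Ighm without DTx 3 or PBS 3 (adjusted p up to 0.042). The call also ended for Ighm with TMM scaling, edgeR or DESeq2.

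Immediate early genes, which respond within minutes to stimulation or to handling of tissue, were high in CD8 PBS, and above all in CD8 PBS 3. Of 22 tested, 3 fell and 0 rose, with a median of -1.66. Jun was at 85.9, 356 and 1341 normalized reads in CD8 DTx and 4311 and 20124 in CD8 PBS (log2 fold change -4.75, adjusted p = 0.0399), Junb was at 3190, 3861 and 5616 against 12162 and 56238 (log2 fold change -2.67, adjusted p = 0.0371), and Ppp1r15a, a stress-induced phosphatase regulator, was at 918, 670 and 1564 against 3934 and 26703 (log2 fold change -3.37, adjusted p = 0.0415). Fos, not called, was at 271, 351 and 890 against 3397 and 54646 (log2 fold change -4.95, adjusted p = 0.0793), a 16.1-fold range within CD8 PBS. No member was called without CD8 DTx 1, CD8 DTx 2 or CD8 PBS 3 or with the CD8 libraries alone, and 6 were called without CD8 PBS 2. CD8 PBS 3 is also the library whose removal ended the most calls in the other lists, and the part of these immediate early transcripts in those results was not tested. Leaving out a library ended the call for Junb and Ppp1r15a without DTx 1, DTx 2 or PBS 3 and for Jun without DTx 1, DTx 2, PBS 2 or PBS 3 (adjusted p up to 0.439). Among other settings, the call was lost for Jun with no filter on low genes or edgeR and for Junb and Ppp1r15a with no filter on low genes.

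Genes that rose were found among receptors that restrain T cells and among those that costimulate them. Of 23 inhibitory receptor genes 8 rose and 0 fell, with a median of 1.25. Pdcd1, the PD-1 gene, was at 30565, 17086 and 17330 normalized reads in CD8 DTx and 3555 and 1389 in CD8 PBS (8.76-fold, log2 fold change 3.23 ± 0.49, adjusted p = 0.0019). Havcr2, which encodes TIM-3, was at 8046, 5197 and 7600 against 767 and 187 (14.6-fold, log2 fold change 4.17 ± 0.46, adjusted p = 0.000496), and Entpd1, the ectonucleotidase CD39, was at 3633, 4453 and 3218 against 528 and 156 (11-fold, log2 fold change 3.70 ± 0.44, adjusted p = 0.000614). Neither group overlapped the other for these receptors. Tigit was at 5614, 5996 and 1559 against 554 and 183 (11.9-fold, log2 fold change 3.55, adjusted p = 0.00329), with CD8 DTx 3 well below the other CD8 DTx libraries. Lag3, a receptor for MHC class II, was at 603, 396 and 650 against 114 and 22.7 (log2 fold change 3.37, adjusted p = 0.0355), and Ctla4, the competitor of CD28 for its ligands, was at 6054, 2335 and 3395 against 1052 and 694 (log2 fold change 2.09, adjusted p = 0.00562). The count was 4 without CD8 PBS 3 and 1 with the CD8 libraries alone. Factors tied to exhaustion and anergy held fewer such genes, with 2 of 16 higher, 0 lower and a median of 0.10. Tox, a regulator of exhausted cells, was at 2892, 1764 and 1676 against 2280 and 1834 (log2 fold change 0.00 ± 0.25, adjusted p = 1.0). Of the 2 that rose, Tox2, a relative of Tox, was at 82.2, 193 and 137 against 2.43 and 0 (log2 fold change 6.14, adjusted p = 0.00375), and Rnf128, an anergy-associated ubiquitin ligase, was at 168, 336 and 171 against 86.3 and 1.33 (log2 fold change 3.91, adjusted p = 0.0443). With a library left out, the call was lost for Tigit and Tox2 without PBS 3, for Ctla4 without DTx 1 or PBS 3, for Rnf128 without DTx 1, DTx 2 or PBS 3 and for Lag3 without DTx 1, DTx 2, DTx 3 or PBS 3 (adjusted p up to 0.463). Other settings ended the call for Lag3 with no filter on low genes or edgeR and for Rnf128 with no filter on low genes, edgeR or DESeq2.

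Of 25 costimulatory receptors and ligands, 8 rose and 0 fell, with a median of 1.07. Icos, a relative of CD28, was at 17348, 9654 and 7147 normalized reads in CD8 DTx and 2410 and 1540 in CD8 PBS (5.76-fold, log2 fold change 2.46 ± 0.40, adjusted p = 0.00266), and Tnfrsf9, the gene of 4-1BB induced by antigen, was at 16109, 8102 and 9002 against 3566 and 1504 (log2 fold change 2.19, adjusted p = 0.00645). Its ligand gene Tnfsf9 was at 585, 411 and 304 against 64.4 and 62.6 (log2 fold change 2.70, adjusted p = 0.00174). All of these CD8 DTx values lay above both CD8 PBS values. Tnfrsf4, which encodes OX40, was not called, at 2815, 1402 and 1906 against 1140 and 275 (log2 fold change 1.81 ± 0.57, adjusted p = 0.0622). The CD40 ligand gene Cd40lg, a feature of CD4 helper cells, was at 989, 688 and 374 against 82.6 and 81.3 (8.34-fold, log2 fold change 2.94, adjusted p = 0.00135). It was 1 of 2 among 5 tested CD4 lineage markers that rose (40.0%), beside Zbtb7b, which encodes the CD4 lineage factor ThPOK, at 184, 94.4 and 306 against 15.8 and 0 (24.6-fold, log2 fold change 5.42, adjusted p = 0.00396), and the list had a median of 2.94 and summed to 1895, 1232 and 830 in CD8 DTx and to 651 and 601 in CD8 PBS. Both calls held without each CD8 library in turn, and neither was made with the CD8 libraries alone. Cd4 itself was at 0 in CD8 DTx 2, where Cd40lg was at 688. The part of CD4 cells in these results was not tested. The costimulatory count was 5 without CD8 DTx 1, 4 without CD8 PBS 3 and 2 with the CD8 libraries alone. Of 18 genes tied to Treg identity, 6 rose and 0 fell, with Foxp3 not among them. With the CD8 libraries alone 1 of them was called. They were Il2ra, Ctla4, Ccr8, Capg, Klrg1 and Nrp1, and effector CD8 cells also express several of them. The interleukin-2 receptor alpha chain gene Il2ra was at 4084, 2442 and 2812 against 533 and 112 (9.65-fold, log2 fold change 3.63 ± 0.52, adjusted p = 0.00161). Calls were lost for Icos and Ccr8 without PBS 3 and for Tnfrsf9 without DTx 1 or PBS 3 (adjusted p up to 0.135). The call also ended for Ccr8 with edgeR or DESeq2.

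Among 24 cytokine genes 4 rose and 0 fell. Ifng, the gene of interferon-gamma, was at 9423, 2672 and 3401 normalized reads in CD8 DTx and 758 and 681 in CD8 PBS (7.18-fold, log2 fold change 2.62 ± 0.56, adjusted p = 0.0116), with CD8 DTx 1 the highest. Csf1, a growth factor for macrophages, was at 2407, 2026 and 6061 against 220 and 94.6 (22.2-fold, log2 fold change 4.41 ± 0.66, adjusted p = 0.0019). Tnf, the tumor necrosis factor gene, overlapped between the groups, at 851, 239 and 662 against 196 and 500 (log2 fold change 0.71 ± 0.60, adjusted p = 0.467). The suppressive cytokine gene Il10 was not called, at 49, 55.9 and 8.08 against 2.43 and 0 (log2 fold change 4.0, adjusted p = 0.179), where CD8 PBS held at most 2 reads. Interleukin-2 itself, Il2, was at 79.4, 31.8 and 17.5 against 36.4 and 8 (log2 fold change 0.99, adjusted p = 0.539). Il4 was listed at 0 in both CD8 PBS libraries and stayed low after ablation, at 13.9, 40.4 and 16.2 against 0 and 0 (at least 6.14-fold against the floor, adjusted p = 0.0167). Of 12 chemokine genes, 4 rose. Ccl3 and Ccl4, whose products attract effector T cells and monocytes, were at 6637, 2932 and 4026 against 1063 and 213 (log2 fold change 3.16, adjusted p = 0.00696) and at 24927, 9971 and 9800 against 1621 and 902 (11.8-fold, log2 fold change 3.47, adjusted p = 0.00521). Ccl5, a chemokine of effector and memory cells, was at 52474, 60574 and 35540 against 8615 and 3294 (8.32-fold, log2 fold change 3.18, adjusted p = 0.00424). Without CD8 PBS 3, 1 cytokine gene and no chemokine gene was called, and with the CD8 libraries alone 0 of either list. The call ended for Ccl3, Ccl4 and Ccl5 without PBS 3, for Ifng without PBS 2 or PBS 3 and for Il4 without DTx 2, PBS 2 or PBS 3 (adjusted p up to 0.138).

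Chemokine receptors and migration genes changed in both directions. Of 30 tested, 12 rose and 3 fell. The receptors for inflamed tissue were among the 12. Ccr2 was at 19795, 21294 and 23570 normalized reads in CD8 DTx and 2348 and 560 in CD8 PBS (14.8-fold, log2 fold change 4.23 ± 0.49, adjusted p = 0.000507), and Cxcr6, a receptor of tissue-resident and tumor T cells, was at 129136, 86490 and 64091 against 18430 and 11594 (6.21-fold, log2 fold change 2.61 ± 0.47, adjusted p = 0.00468). The lowest CD8 DTx library was 8.43-fold above the highest CD8 PBS library for Ccr2 and 3.48-fold for Cxcr6. Cx3cr1, the fractalkine receptor of circulating effectors, was at 3305, 9946 and 3318 against 605 and 165 (14.3-fold, log2 fold change 3.91, adjusted p = 0.00239), and CD8 DTx 2 was the highest. Cxcr3, the receptor for interferon-induced chemokines, was at 19989, 24379 and 12512 against 4903 and 2579 (5.07-fold, log2 fold change 2.36, adjusted p = 0.00853). The 3 that fell were Ccr7, Cxcr5 and Ccr9, the last a gut homing receptor at 116, 141 and 99.6 against 3578 and 5035 (36.2-fold lower, log2 fold change -5.16, adjusted p = 0.0181). S1pr5, an egress receptor of effector cells, was at 547, 1287 and 826 against 173 and 8 (log2 fold change 4.4, adjusted p = 0.0167), and S1pr1, the egress receptor of naive cells, was not called, at 10874, 13410 and 7457 against 15442 and 21450 (log2 fold change -0.82, adjusted p = 0.121). The count of higher receptors was 4 without CD8 PBS 3, and that of lower ones 1 without either CD8 PBS library and 2 without CD8 DTx 1 or 2. With the CD8 libraries alone 3 were called higher and 1 lower. Removal of a library ended the call for Cxcr6, Cx3cr1 and Cxcr3 without PBS 3, for S1pr5 without DTx 2 or PBS 3, for Cxcr5 without PBS 2 or PBS 3 and for Ccr9 without DTx 1, DTx 2, PBS 2 or PBS 3 (adjusted p up to 0.238). Among other settings, the call was lost for S1pr5 with edgeR.

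Among adhesion molecules the called genes mostly rose. Of 24 integrin and residency genes 5 rose (20.8%, against 3.87% of all genes) and 1 fell (4.17%, against 1.59%), so a fall rests on 1 gene. Itga1, the CD49a chain of tissue-resident cells, was at 2805, 2818 and 2918 normalized reads in CD8 DTx and 290 and 42.7 in CD8 PBS (17.1-fold, log2 fold change 4.66 ± 0.72, adjusted p = 0.00217), and its partner Itgb1 was at 32125, 53358 and 38448 against 12842 and 6105 (log2 fold change 2.19, adjusted p = 0.0103). Itgax, which encodes CD11c, was at 2852, 5134 and 5785 against 502 and 109 (15-fold, log2 fold change 4.22, adjusted p = 0.0331). Itgae, the CD103 chain that binds epithelial cadherin, went the other way without passing the test, at 1413, 5684 and 3033 against 8515 and 6974 (log2 fold change -1.41 ± 0.76, adjusted p = 0.26), and was lower in all CD8 DTx libraries. Itgax and Xcr1 were also on the dendritic cell marker list, whose sums were 6452, 7419 and 7785 in CD8 DTx and 2372 and 2278 in CD8 PBS. Of the 8 tested dendritic cell markers 2 rose and 0 fell, with 3 positive and 5 negative log2 fold changes. Clec9a was at 0 in all 5 libraries and Flt3 at 0.924, 0 and 0 against 38.9 and 0. The part of dendritic cells in these results was not tested. Without CD8 DTx 1 or 2, 2 integrin genes were called higher, and without CD8 DTx 3 and without CD8 PBS 3 the counts were 3 and 1. With the CD8 libraries alone it was 0. Leaving out a library ended the call for Xcr1 without PBS 3, for Itgb1 without DTx 2 or PBS 3 and for Itgax without DTx 1, DTx 2, DTx 3 or PBS 3 (adjusted p up to 0.348). Other settings ended the call for Itgax with a pseudocount of 0.5 or DESeq2.

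Cytokine receptors changed in both directions. Of 40 genes of cytokine receptors and their SOCS feedback inhibitors, 8 rose and 4 fell, with a median of -0.25. The receptors of cytokines that drive interferon-gamma production rose. Il12rb2, the signalling chain of the interleukin-12 receptor, was at 9871, 6428 and 6944 normalized reads in CD8 DTx and 912 and 229 in CD8 PBS (13.6-fold, log2 fold change 4.05 ± 0.55, adjusted p = 0.00118), and Il18rap, the accessory chain of the interleukin-18 receptor, was at 13556, 12693 and 13783 against 2998 and 1414 (6.05-fold, log2 fold change 2.69 ± 0.37, adjusted p = 0.00118). Il1rl1, the receptor for the alarmin interleukin-33, was listed at 0 in both CD8 PBS libraries and was at 217, 320 and 353 against 0 and 0 (at least 77.6-fold higher against the floor, adjusted p = 6.79e-06). Cish and Socs2, feedback inhibitors induced through STAT5, were at 5635, 5955 and 5874 against 889 and 606 (log2 fold change 2.98 ± 0.26, adjusted p = 0.000121) and at 894, 715 and 808 against 81.4 and 16 (log2 fold change 4.42 ± 0.56, adjusted p = 0.000952). Cish varied by 1.06-fold among the CD8 DTx libraries. The 4 that fell were Il6ra, Il6st, Il4ra and Ifngr2. Il6st, the signal chain gp130 shared by the interleukin-6 family, was at 662, 701 and 1123 against 7639 and 8676 (9.84-fold lower, log2 fold change -3.34 ± 0.61, adjusted p = 0.00518), and Il4ra, the interleukin-4 receptor, was at 1501, 1994 and 3092 against 10016 and 9823 (4.52-fold lower, log2 fold change -2.24 ± 0.41, adjusted p = 0.00517). Ifngr2, a chain of the interferon-gamma receptor, was at 19.4, 47.2 and 12.1 against 645 and 1413 (39.2-fold lower, log2 fold change -5.35 ± 0.80, adjusted p = 0.00186). Il2rb, the shared beta chain for interleukins 2 and 15, was not called, at 28920, 41446 and 41255 against 23630 and 13488 (log2 fold change 1.04, adjusted p = 0.0841). Without CD8 PBS 3, 7 were called higher and 2 lower, and with the CD8 libraries alone 3 and 2. With a library left out, the call was lost for Il6st without PBS 3 and for Il4ra without DTx 1 or PBS 3 (adjusted p up to 0.0748).

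The interferon-induced transmembrane genes had some of the largest changes of all. Of 13 tested genes of the Ifitm and Ly6 families 6 rose and 0 fell, with a median of 2.94. With the CD8 libraries alone 4 were called. Ifitm1 was at 33090, 29091 and 14751 normalized reads in CD8 DTx and 117 and 13.3 in CD8 PBS (395-fold, log2 fold change 9.20 ± 1.60, adjusted p = 0.0041), Ifitm2 was at 10938, 8864 and 4586 against 70.5 and 12 (197-fold, log2 fold change 7.97 ± 0.71, adjusted p = 0.000121), and Ifitm3 was at 5067, 3319 and 1586 against 64.4 and 30.7 (69.9-fold, log2 fold change 6.04 ± 0.72, adjusted p = 0.000607). The products of these neighbouring genes block the entry of enveloped viruses, and reads of their similar sequences are uncertain between them. Ly6a, the stem cell antigen Sca-1 of activated T cells, was at 56334, 46216 and 24801 against 3517 and 2189 (14.9-fold, log2 fold change 3.85 ± 0.44, adjusted p = 0.000496). Calls were lost for Ifitm1 without PBS 3 (adjusted p up to 0.0875).

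Few other genes that interferons induce passed the test. Of 45 type I interferon-stimulated genes 0 rose, 1 fell and 2 were higher at the adjusted p alone, with a median of 0.36 and a positive value in 34. All CD8 DTx libraries lay above both CD8 PBS libraries for 15 of the 45, against 22.8% of all genes. They lay below for 4, against 20.8%. Of 18 GTPases and factors induced by interferon-gamma, limma called 0 and 3 were higher at the adjusted p alone, with 5 at an unadjusted p under 0.05, 0 called by edgeR, 1 by DESeq2 and a median of 0.22. Isg15 was at 842, 642 and 495 normalized reads in CD8 DTx and 247 and 525 in CD8 PBS (log2 fold change 0.84 ± 0.50, adjusted p = 0.302) and Ifit1 at 4768, 2177 and 1765 against 835 and 2071 (log2 fold change 1.0 ± 0.67, adjusted p = 0.358). Irf7, a factor that amplifies type I interferon responses, was at 5407, 2884 and 3754 against 3036 and 4006 (log2 fold change 0.16, adjusted p = 0.77). All 3 overlapped between the groups. Oas2, the gene that fell, was at 17.6, 21.2 and 20.2 against 94.8 and 208 (log2 fold change -2.78, adjusted p = 0.0238). The call ended for Oas2 without DTx 1, DTx 2 or PBS 3 (adjusted p up to 0.281).

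The letters of the interferon-stimulated response element (GAAA, any 2 bases and GAAA again, on either strand) were in 14 of 33 promoters of the type I list (42.4%) and in 3.21% of all promoters of 300 bases. The 150 bases before the start are shown for the Ifitm genes, which rose, and for Ifit1 and Isg15, which were not called, because all 5 are induced by interferon. Capitals mark the element. The regions were chr7:140967926-140968075 (plus strand) for Ifitm1, chr7:140955962-140956111 (minus strand) for Ifitm2, chr7:141010745-141010894 (minus strand) for Ifitm3, chr19:34640739-34640888 (plus strand) for Ifit1 and chr4:156200819-156200968 (minus strand) for Isg15.
Ifitm1: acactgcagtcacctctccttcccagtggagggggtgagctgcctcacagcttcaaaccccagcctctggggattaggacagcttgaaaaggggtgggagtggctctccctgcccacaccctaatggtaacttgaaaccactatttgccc
Ifitm2: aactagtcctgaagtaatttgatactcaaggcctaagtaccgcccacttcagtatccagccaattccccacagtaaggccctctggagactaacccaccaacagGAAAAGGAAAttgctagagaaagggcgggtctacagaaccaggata
Ifitm3: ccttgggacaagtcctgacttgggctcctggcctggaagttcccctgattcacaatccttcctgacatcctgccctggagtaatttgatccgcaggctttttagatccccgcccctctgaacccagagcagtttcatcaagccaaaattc
Ifit1: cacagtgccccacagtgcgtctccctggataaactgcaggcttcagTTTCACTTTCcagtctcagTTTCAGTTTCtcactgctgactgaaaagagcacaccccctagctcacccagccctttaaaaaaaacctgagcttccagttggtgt
Isg15: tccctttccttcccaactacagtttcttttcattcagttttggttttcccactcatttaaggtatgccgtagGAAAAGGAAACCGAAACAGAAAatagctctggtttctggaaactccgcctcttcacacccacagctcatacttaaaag
The element was found 2 times in Ifit1, in 3 overlapping places in Isg15 and 1 time in Ifitm2. For Ifitm1 the whole 300 bases held no match, and for Ifitm3 the 2 matches lay outside the 150 bases printed.

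Calcium-binding S100 proteins, annexins and galectins, which act at the membrane, in repair and in migration, included several genes that rose. Of 21 tested 9 rose and 0 fell, with a median of 2.11, and 1 was called with the CD8 libraries alone. Lgals3, the gene of galectin-3, was at 22912, 27936 and 12280 normalized reads in CD8 DTx and 1000 and 376 in CD8 PBS (30.6-fold, log2 fold change 5.02 ± 0.42, adjusted p = 0.000121), and Lgals1, the gene of galectin-1, was at 40846, 55014 and 18370 against 3989 and 2009 (12.7-fold, log2 fold change 3.61 ± 0.53, adjusted p = 0.00175). S100a4 was at 11108, 10289 and 7793 against 1221 and 317 (12.7-fold, log2 fold change 3.95, adjusted p = 0.00118) and S100a6 at 17137, 19731 and 10480 against 2109 and 532 (12-fold, log2 fold change 3.85, adjusted p = 0.00248). Between the nearest libraries of the groups Lgals3 differed by 12.3-fold and S100a4 by 6.38-fold. Anxa1, a membrane repair protein and ligand of formyl peptide receptors, was at 8091, 7440 and 4080 against 762 and 98.6 (15.2-fold, log2 fold change 4.51, adjusted p = 0.00174), and Anxa2 was at 52418, 54192 and 24916 against 7359 and 2361 (9.02-fold, log2 fold change 3.31, adjusted p = 0.00159). Macrophages express several of these genes at high levels. The 22 tested macrophage and monocyte markers included 0 that rose and 1 that fell, the lipid carrier gene Apoe, and they summed to 28661, 34648 and 20369 in CD8 DTx and 18825 and 12887 in CD8 PBS. Of the 22, 8 had a positive and 13 a negative log2 fold change, and the groups did not overlap for 3 that were higher and 4 that were lower. The lysozyme gene Lyz2 was at 195, 51 and 198 against 1321 and 497 and the complement gene C1qa at 2.77, 7.7 and 0 against 76.5 and 2.67. The growth factor receptor gene Csf1r was at 25.9, 8.67 and 13.5 against 82.6 and 0. The highest values of Lyz2, C1qa and Csf1r lay in CD8 PBS 2. These 3 genes hold a small part of the sums, which were higher in every CD8 DTx library than in both CD8 PBS libraries. The part of macrophages in these results was not tested. Removal of a library ended the call for S100a6 without PBS 3 and for Apoe without PBS 2 or PBS 3 (adjusted p up to 0.105).

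Of 37 tested glycolysis genes, 3 rose by more than 4-fold and 1 fell, and 19 were higher at the adjusted p alone, with a median of 1.22 and a positive value in 31. Tpi1, the triose phosphate isomerase, was at 24995, 20558 and 13107 normalized reads in CD8 DTx and 4670 and 2575 in CD8 PBS (5.4-fold, log2 fold change 2.44 ± 0.36, adjusted p = 0.00181), and Aldoc, an aldolase, was at 1706, 1074 and 1043 against 173 and 46.7 (11.6-fold, log2 fold change 3.77 ± 0.49, adjusted p = 0.000986). Slc16a3, the lactate exporter MCT4, was at 946, 1108 and 1477 against 329 and 70.6 (log2 fold change 2.91, adjusted p = 0.0052). Gapdh was at 88605, 82128 and 45818 against 19952 and 17150 (log2 fold change 1.91 ± 0.32, adjusted p = 0.00359), Pgk1 at 17647, 14272 and 10888 against 4831 and 4099 (log2 fold change 1.65 ± 0.24, adjusted p = 0.00171) and Ldha, which makes lactate, at 77282, 81586 and 57690 against 34843 and 32359 (log2 fold change 1.09 ± 0.25, adjusted p = 0.0149), all 3 under the 4-fold limit with groups that did not overlap. The member that fell was Pdk1, a kinase that keeps pyruvate out of mitochondria, at 1635, 1253 and 2474 against 10210 and 11245 (6-fold lower, log2 fold change -2.64 ± 0.38, adjusted p = 0.00159). Without CD8 PBS 2, 5 of the list were called higher, and with the CD8 libraries alone 0. Leaving out a library ended the call for Slc16a3 without PBS 3 (adjusted p up to 0.0742).

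Housekeeping classes held few genes that passed the test. No gene was called among 78 of the respiratory chain and ATP synthase (median 0.43), 77 cytosolic ribosomal proteins (median -0.39), 76 mitochondrial ribosomal proteins (median 0.26), 45 proteasome subunits (median 0.46) and 72 chaperones (median 0.06). At an adjusted p alone, 1 respiratory chain gene, 1 proteasome subunit and 3 chaperones were higher, and 2 cytosolic and 1 mitochondrial ribosomal protein genes and 2 chaperones were lower. At an unadjusted p under 0.05 the numbers were 10, 12, 9, 9 and 17 in the same order, against 26.3% of all genes, edgeR called 0 in each class and DESeq2 1 chaperone. The medians differed in sign between the replicate sets for 4 of the 5 classes, as for the proteasome at 0.63 in replicates 1 and 2 and -0.04 in replicate 3. Cytosolic ribosomal proteins were negative in both sets (-0.13 and -0.82), a small shift with a negative value in 70 of the 77. In 40 of them all CD8 DTx libraries lay below both CD8 PBS libraries, against 20.8% of all genes. Of 47 T cell receptor signalling genes 0 were called by limma, 4 were higher at the adjusted p alone, 12 passed an unadjusted p of 0.05, edgeR called 0 and DESeq2 1, and the median was 0.04. Of 27 cholesterol genes 6 were higher and 2 lower at the adjusted p alone, and the single call was Abca1, an exporter of cholesterol, at 2.77, 84.7 and 1.35 against 1171 and 742 (log2 fold change -6.68, adjusted p = 0.0351). Scd1, the desaturase that makes monounsaturated fatty acids, was listed at 0 in CD8 PBS and was at 104, 94.4 and 32.3 against 0 and 0 (at least 20.2-fold higher against the floor, adjusted p = 0.037). Of 30 genes of one-carbon and nucleotide metabolism 2 fell, the AMP deaminases Ampd1 and Ampd3. Ampd1 was at 0, 0 and 0 against 391 and 500 (at least 138-fold lower against the floor, adjusted p = 0.00537), and Ampd3 was at 8.31, 0 and 10.8 against 338 and 345 (53.7-fold lower, log2 fold change -6.16 ± 0.92, adjusted p = 0.00185). With a library left out, the call was lost for Ampd1 without PBS 3, for Scd1 without DTx 1, DTx 2, PBS 2 or PBS 3 and for Abca1 without DTx 1, DTx 3, PBS 2 or PBS 3 (adjusted p up to 0.23). The call also ended for Abca1 with no filter on low genes or edgeR and for Scd1 with edgeR.

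BCL-2 family and death genes rose in a few members. Of 26 tested 5 rose and 0 fell, and they included the inflammatory caspase gene Casp1 at 3886, 2987 and 2747 normalized reads in CD8 DTx and 458 and 163 in CD8 PBS (10.3-fold, log2 fold change 3.53 ± 0.40, adjusted p = 0.000496) and the survival gene Bcl2a1b at 2152, 1136 and 1415 against 476 and 267 (log2 fold change 2.08, adjusted p = 0.00755), which has near-identical copies. The count was 3 without CD8 DTx 1 and 2 both without CD8 PBS 3 and with the CD8 libraries alone. Calls were lost for Bcl2a1b without DTx 1 or PBS 3 (adjusted p up to 0.141). Among other settings, the call was lost for Bcl2a1b with a term for sex.

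The genes of largest change were mostly outside these lists. For the higher ones, Muc20, a cell surface mucin, was listed at 0 in CD8 PBS and was at 643, 1454 and 339 normalized reads in CD8 DTx and 0 and 0 in CD8 PBS (at least 212-fold higher against the floor, adjusted p = 3.49e-05). Nhsl2 was at 163, 996 and 319 against 0 and 0 (at least 129-fold, adjusted p = 0.000496), and Map6, a microtubule stabilizer, was at 212, 338 and 303 against 0 and 0 (at least 74.4-fold, adjusted p = 1.2e-05). No read of these 3 genes was found in either CD8 PBS library. Mmp9, a matrix protease that is also a neutrophil marker, was at 176, 328 and 311 against 0 and 0 (at least 71.1-fold, adjusted p = 6.79e-06). Of 8 tested neutrophil markers 1 rose and 0 fell, with a median log2 fold change of 1.5 and 5 positive and 3 negative values. With Mmp9 included, the neutrophil markers summed to 257, 1011 and 436 in CD8 DTx and to 186 and 60 in CD8 PBS. The neutrophil genes S100a8 and S100a9 were at 18.5, 172 and 5.38 against 4.86 and 0 and at 11.1, 186 and 14.8 against 24.3 and 0, highest in CD8 DTx 2. The part of neutrophils in the rise of Mmp9 was not tested. Trim16, a ubiquitin ligase, was at 331, 247 and 157 against 0 and 0 (at least 64.1-fold, adjusted p = 0.000986), and Med12l, a Mediator subunit gene, was at 165, 115 and 256 against 0 and 0 (at least 46.7-fold, adjusted p = 0.0135). Esm1, a secreted proteoglycan better known from endothelium, was at 1262, 1595 and 1307 against 9.72 and 4 (202-fold, log2 fold change 7.56, adjusted p = 0.000432). Gstm5, a glutathione transferase, was at 825, 334 and 791 against 2.43 and 0 (adjusted p = 0.000123), and Itsn1, an endocytic scaffold, was at 376, 192 and 454 against 1.21 and 0 (adjusted p = 0.00334). These 2 had at most 2 reads in CD8 PBS, so no fold is given. The call ended for Itsn1 without PBS 3 and for Med12l without PBS 2 or PBS 3 (adjusted p up to 0.121).

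Among the genes that fell most, Art4, a mono-ADP-ribosyltransferase known as a blood group antigen, was at 0, 0.963 and 0 normalized reads in CD8 DTx and 658 and 523 in CD8 PBS (adjusted p = 0.000615), a single read in all of CD8 DTx. Eng, the TGF-beta coreceptor endoglin, was at 5.54, 0 and 0 against 463 and 459 (249-fold lower, log2 fold change -7.95, adjusted p = 0.00225). Ptk2, the focal adhesion kinase, was at 0, 0 and 0 against 236 and 400 (at least 98.3-fold lower against the floor, adjusted p = 0.00971), and Sorcs2, a sorting receptor, was at 0, 0 and 0 against 181 and 168 (at least 54-fold lower, adjusted p = 0.000507). CD8 PBS replicates agreed within 2-fold for these genes. Gabrr2, a GABA receptor subunit, was at 4.62, 0 and 9.42 against 454 and 479 (99.7-fold lower, log2 fold change -6.91, adjusted p = 0.0109), and Chst15, a sulfotransferase, was at 0, 46.2 and 8.08 against 787 and 876 (45.9-fold lower, log2 fold change -6.78, adjusted p = 0.0311). Cnksr3 and Syde2 were listed at 0 in CD8 DTx, at 0, 0 and 0 against 121 and 171 (adjusted p = 0.0173) and at 0, 0 and 0 against 115 and 103 (adjusted p = 0.00254), and Prpf40b, a splicing factor, was at 11.1, 0 and 0 against 239 and 207 (log2 fold change -6.60, adjusted p = 0.00605). Removal of a library ended the call for Ptk2, Syde2 and Prpf40b without PBS 3, for Gabrr2 without PBS 2 or PBS 3, for Chst15 without DTx 1, PBS 2 or PBS 3 and for Cnksr3 without DTx 2, PBS 2 or PBS 3 (adjusted p up to 0.218). Other settings ended the call for Chst15 with no filter on low genes and for Syde2 with DESeq2.

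The same treatment was compared in CD4 Tconv cells, whose DTx (n = 3) and PBS (n = 2) libraries share no library with the CD8 groups. In CD4 cells 868 genes were called (6.85%), of which 641 rose (5.06%) and 227 fell (1.79%). Of the 490 genes that rose in CD8 cells 332 also rose in CD4 cells, which is 67.8% of the CD8 list and 51.8% of the CD4 list, and of the 202 that fell 95 also fell, 47.0% and 41.9% of the lists. The mitosis list had 45 higher in CD4 cells against 49 in CD8 cells, the inhibitory receptors 8 in each, and the naive list 13 lower against 14. Whether the effect itself differed was tested as an interaction, which called 6 genes (0.0474%), 3 with a higher (0.0237%) and 3 with a lower (0.0237%) effect in CD8 cells, and 513 at an unadjusted p under 0.05 (4.05%). No member of the mitosis, naive, effector factor, inhibitory or costimulatory lists was among the 6, which with so few calls does not show equal effects. At an unadjusted p under 0.05 in the interaction, these lists held 6 of 91, 4 of 30, 4 of 23, 3 of 23 and 10 of 25 members in that order. The share of all genes was 4.05%, so the costimulatory list lay well above it.

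Prf1 was the member of the cytotoxic list among the 6. Prf1 went from 1415 ± 16.3 to 575 ± 231 normalized reads (SD) in CD4 cells (log2 fold change -1.38, adjusted p = 0.0157), and its log2 fold change in CD8 cells was 1.76 (difference 3.14 ± 0.46, adjusted p = 0.0447). Ly6c1, a surface antigen of memory cells with near-identical copies, rose in CD8 cells, at 512, 1596 and 633 normalized reads in CD8 DTx and 64.4 and 24 in CD8 PBS (log2 fold change 4.31, adjusted p = 0.000986), and fell in CD4 cells, from 4230 ± 27.3 to 674 ± 158 (difference 6.99 ± 0.79, adjusted p = 0.0146). Myo10, an unconventional myosin of filopodia, was at 163, 30.8 and 242 against 1.21 and 0 in CD8 cells and went from 704 ± 120 to 37.8 ± 55.6 in CD4 cells (difference 11.58 ± 1.73, adjusted p = 0.0447). Each of these 3 genes had log2 fold changes of opposite sign in the 2 lineages, past the adjusted p in both. The other 3 had larger fold changes in CD4 cells, where both PBS libraries were at 0. Ccl1, the ligand of CCR8, was at 1335, 1072 and 1053 against 226 and 38.7 in CD8 cells and at 1541 ± 173 in CD4 DTx (difference -6.99 ± 0.92, adjusted p = 0.0281). Fam20a, a pseudokinase of the secretory pathway, was at 1004, 555 and 752 against 49.8 and 14.7 in CD8 cells and at 998 ± 149 in CD4 DTx (difference -5.22 ± 0.73, adjusted p = 0.0354). Scin, an actin-severing protein, was at 48, 74.2 and 86.1 against 54.7 and 16 in CD8 cells, where it was not called (adjusted p = 0.296), and at 342 ± 134 in CD4 DTx (difference -7.17 ± 0.96, adjusted p = 0.0281). Differences against groups at 0 depend on the value added before the logarithm. The limma count of 6 was 1 without each CD8 DTx library in turn and 0 without CD4 PBS replicate 2 or 3 (478 and 386 genes at an unadjusted p under 0.05), and edgeR called 4 genes and DESeq2 70. Over 20 alternatives the difference lost its call in 2 for Ly6c1, 8 for Scin and 9 each for Ccl1 and Fam20a. It was lost in 11 for Prf1 and 13 for Myo10. For the effect in CD8 cells alone, the call ended for Myo10 and Ccl1 without CD8 PBS 3.

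**Figure D4:**
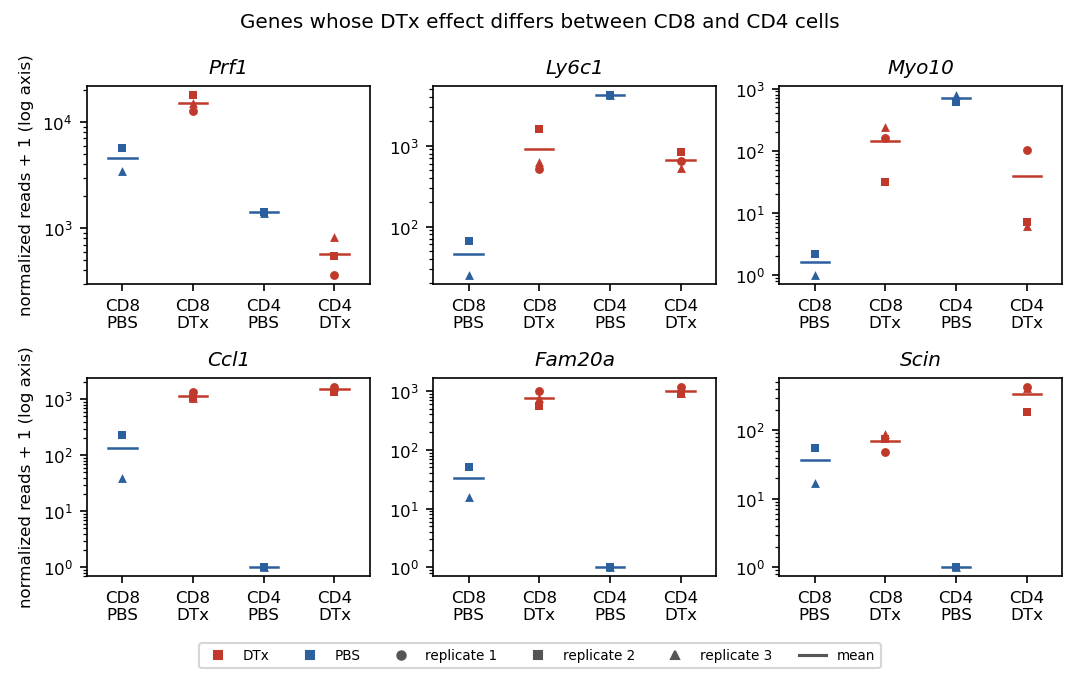
Normalized reads + 1 on a log axis for the 6 genes whose DTx effect differed between CD8 and CD4 cells, with a point a library, red for DTx (n = 3), blue for PBS (n = 2), marker shape for the replicate number and bars at the group means. Prf1, Ly6c1 and Myo10 are higher after DTx in CD8 and lower in CD4 cells, and Ccl1, Fam20a and Scin start at 0 in CD4 PBS but not in CD8 PBS.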

How the data were processed

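RNA was measured in 13 libraries of T cells sorted from B16-F10 tumors, of which the 5 CD8 libraries were compared here and the 5 CD4 Tconv libraries served for the test of the difference. According to the study's methods and the submitters' processing notes, the authors prepared libraries from sorted cells (SmartSeq2 per the labels, a SMARTer kit per the methods), trimmed reads with Cutadapt, aligned them with hisat2 to the mouse genome build NCBIM37 (mm9) and kept uniquely mapped reads. The strand setting and the read counter are not given in the sources used here, so values of overlapping genes and of near-identical copies are uncertain. Their deposited table gives each gene symbol 1 signal value in every library, the read count after scaling. Within each library 100% of the deposited signal values were whole multiples of 1 step, within 0.01 of a read, as counts divided by a size factor are. A read was worth between 0.924 and 1.35 normalized reads in the CD8 libraries. The table lists 12963 genes, of which 53 were 0 in every library and 21 bore symbols turned into dates, which were not named. The read counts cover counting error only, since no molecular identifiers are mentioned.

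The 12667 genes that reached 10 normalized reads in 2 or more libraries were fitted on the log2(value + 1) scale with limma 3.58.1 (R 4.3.3). The model held a mean for each of the 5 groups, used all 13 libraries and moderated variances with a trend. Calls required a change above 4-fold and an adjusted p (Benjamini-Hochberg) under 0.05. Log2 fold changes on this scale understate the change of low genes. A fold against a group whose libraries were all at 0 was computed against the mean of the floors of that group's libraries (3 reads each) and is a lower bound. No CD8 library repeated another, as replicate pairs gave chi-square values of 47.2 to 244 for each degree of freedom. Deviations from the group means were correlated between same-numbered CD8 DTx and CD4 DTx libraries (r = 0.36, 0.207 and 0.59), so the difference was also fitted with the number as a block, where 9 genes were called, all 6 of those named among them. Named genes were Cd8a, Cd8b1, Cd4, Foxp3 and Cd3e, the 12 genes of largest change in each direction among those called with groups that did not overlap (gene models and dates left out), the genes called in the difference, a fixed set of T cell genes whatever their result, and members of the gene lists. The members and lists were chosen with earlier results of these data known. Promoters came from RefSeq on GRCm38.p6 and were matched by symbol. Alternatives were other pseudocounts, filters and scalings, the CD8 libraries alone, edgeR 4.0.16 and DESeq2 1.42.0 on the recovered reads, a replicate block, a term for sex and leaving out each library. Some members are not reported here. The scripts were tested on simulated data.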

Additional observations from a re-analysis of the deposited data

Results flagged for a closer look

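The difference between the DTx effects in CD8 and CD4 cells was past the threshold for 6 genes in the limma interaction test with Benjamini-Hochberg adjustment. The log2 fold change was higher in CD8 than in CD4 cells by 3.14 for Prf1 (adjusted p = 0.0447), by 6.99 for Ly6c1 (adjusted p = 0.0146) and by 11.58 for Myo10 (adjusted p = 0.0447). The difference, CD8 minus CD4, was -6.99 for Ccl1 (adjusted p = 0.0281), -5.22 for Fam20a (adjusted p = 0.0354) and -7.17 for Scin (adjusted p = 0.0281). Over the alternatives the adjusted p of the difference ranged from 2.38e-06 to 0.163 for Prf1, from 1.22e-14 to 0.0784 for Ly6c1, from 4.87e-05 to 0.167 for Myo10, from 1.02e-05 to 0.117 for Ccl1, from 0.000363 to 0.171 for Fam20a and from 1.69e-05 to 0.106 for Scin. Groups of 2 or 3 libraries were too small for a check for single outlying libraries.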

How the results depend on the processing

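The call of 692 CD8 genes (490 higher, 202 lower) depended most on how the spread was estimated and on single libraries. With the CD8 libraries alone 201 genes were called (118 higher, 83 lower). At the adjusted p alone there were 1377 (937 higher, 440 lower), and with a 2-fold limit 1199 (818 higher, 381 lower). Leaving out 1 CD8 library gave between 153 (without PBS 3) and 994 (without DTx 3) genes in all, between 130 and 535 higher and between 23 and 459 lower. Other pseudocounts, filters and scalings, edgeR (528 genes), DESeq2 (803) and a sex term chosen after seeing the data (706) stayed within 1.5 times the total. For the 6 genes of the difference (3 higher, 3 lower), a pseudocount of 5 gave 1 (1 higher, 0 lower), no filter 10 (5 higher, 5 lower), DESeq2 70 (13 higher, 57 lower) and the sex term 5 (1 higher). Leaving out 1 library gave between 0 and 14 genes, between 0 and 6 higher and between 0 and 10 lower.

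With the replicate number as a block, 756 CD8 genes were called. Same-numbered CD8 DTx and CD8 PBS libraries were correlated at r = 0.084 (replicate 2) and -0.006 (replicate 3) in their deviations, so pairing between the treatments was not shown. Which numbers mark a shared day is not stated, and replicate 3 of every group also carried Y-linked transcripts. Under the block the calls for Bcl2a1b, Cdkn1a, Ctla4, Il4ra, Lef1 and Tnfrsf9 ended, 6 immediate early genes were called in place of 3 and 3 BCL-2 family genes in place of 5. The difference between the lineages gave 9 genes with the block (3 higher, 6 lower).

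Of the named genes, 136 were called and 29 of these kept their call under every alternative run. None of the named genes that were called, in the main fit or in an alternative, changed sign under that alternative. Depth limits genes near the floor of 3 reads, where folds are lower bounds, and 2 PBS libraries limit the estimate of their spread.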

Other observations

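Some gene groups outside the lists were noticed among the genes called, and they are given as values chosen after they were seen. The metallothionein genes Mt1, Mt2 and Mt3, whose products bind zinc and copper, all rose. Mt1 was at 2878, 612 and 833 normalized reads in CD8 DTx and 142 and 25.3 in CD8 PBS (17.2-fold, log2 fold change 4.21 ± 0.71, adjusted p = 0.00362), Mt2 at 600, 100 and 176 against 13.4 and 0 (43.7-fold, log2 fold change 5.86 ± 1.15, adjusted p = 0.00706) and Mt3 at 55.4, 59.7 and 28.3 against 0 and 0 (at least 12.5-fold higher against the floor, adjusted p = 0.00257). CD8 DTx 1 was the highest for Mt1 and Mt2 and not for Mt3. In CD4 cells the log2 fold changes were 1.83 for Mt1 (adjusted p = 0.123), 1.10 for Mt2 (adjusted p = 0.574) and 3.26 for Mt3 (adjusted p = 0.0309), and the differences between the lineages did not pass the test.

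Single genes of receptors and of other kinds that rose are given in the same way, without a count of how many such genes were tested. Cysltr2, a receptor for cysteinyl leukotrienes, was at 432, 627 and 471 normalized reads in CD8 DTx and 203 and 46.7 in CD8 PBS (log2 fold change 2.36, adjusted p = 0.0176), and Cysltr1 was at 111, 126 and 52.5 against 21.9 and 0 (log2 fold change 4.25, adjusted p = 0.0276). The prostacyclin receptor gene Ptgir was listed at 0 in CD8 PBS and was at 85, 16.4 and 18.8 against 0 and 0 (at least 10.5-fold higher against the floor, adjusted p = 0.00429). Adora2b, an adenosine receptor, was at 31.4, 177 and 57.9 against 0 and 0 (at least 23.2-fold higher against the floor, adjusted p = 0.00518), and it was listed at 0 in all CD4 libraries. Cd38, which degrades NAD, was at 2881, 4660 and 2147 against 383 and 244 (10.3-fold, log2 fold change 3.32 ± 0.46, adjusted p = 0.00137), and Epas1, the hypoxia-inducible factor HIF-2 alpha, was at 141, 588 and 376 against 26.7 and 8 (21.2-fold, log2 fold change 4.32 ± 0.79, adjusted p = 0.00523). With a library left out, the call was lost for Ptgir, Adora2b and Epas1 without PBS 3, for Cysltr2 without DTx 2 or PBS 3 and for Cysltr1 without DTx 1, DTx 2 or PBS 3 (adjusted p up to 0.347). The call also ended for Cysltr1 with edgeR.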
